A study of Mus musculus with 10 samples.

Results

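DNA replication copies the genome once per cell cycle, and the genes measured here encode its machinery, the enzymes that make its nucleotide building blocks, and the proteins that copy chromatin marks behind the fork. In G1 phase the origin recognition complex, with CDC6 and CDT1, loads the MCM2-7 helicase on DNA, a step called licensing. At the start of S phase CDC45 and the GINS complex join the helicase and the forks begin to move. Many of these genes are switched on together at the G1 to S transition by E2F transcription factors, once cyclin-dependent kinases have inactivated the RB protein, so their combined mRNA level is a common readout of cycling cells in tumors. The set holds 50 genes listed by name in 8 role groups: origin licensing, helicase activation, the sliding clamp and its loader, polymerases and primase, single-strand binding and lagging strand, deoxynucleotide synthesis, S phase entry, and the copying of chromatin and methylation. Of these, 49 were measured among 19505 genes, each by 1 probe set. Mcm7 was named by no probe set used and was not analysed here.

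The arrays compared 5 shPC with 5 Ctrl tumors, which asks what suppression of pyruvate carboxylase (PC) changes in a growing mammary tumor. All tumors came from M-Wnt cells, a mesenchymal line of mouse Wnt-driven mammary cancer, that had been transduced with a doxycycline-inducible shRNA against Pcx and selected with puromycin. Each graft of 50000 cells went into mammary fat pad 4 of female C57BL6J mice, 8 to 12 weeks old and fed AIN-93G diet. Mice of the shPC group drank water with doxycycline at 150 µg/ml and those of the Ctrl group drank plain water, so both groups carried the construct, neither carried a non-targeting shRNA under doxycycline, and the drug and the knockdown cannot be told apart. Values are log signals of Clariom S arrays, 1 array per tumor, read as log2 although no source used here states the base. A difference is shPC minus Ctrl on that scale. Tumors were profiled whole, so the signal is that of tumor and host cells mixed, and a smaller number of cells of a type cannot be told apart from less RNA per cell. No source used here says outright that each tumor came from a mouse of its own, and p-values cover the variation among these 10 tumors only. The number of arrays limits the precision.

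Arrays correlated with each other at r = 0.960 to 0.993 across genes. Their median signal lay between 7.35 and 7.47 except in shPC 5, where it was 7.16. Mesenchymal genes were bright on average in all tumors (mean of 13 genes 11.95 to 12.38), and 12 of the 13 passed a filter on low values. Differences of 9 of the 13 were above 0 (median 0.18, 55.1% of all genes above 0). At an unadjusted p under 0.05, 3 were higher (7.8% of all genes) and 0 lower. The mean of 10 epithelial markers was 5.52 to 8.99 in Ctrl and 4.28 to 6.31 in shPC. All 10 epithelial markers had differences below 0 (median -1.27) and 3 were lower at an unadjusted p under 0.05 (6.25% of all genes). The claudin gene Cldn3 averaged 4.78 in Ctrl and 4.35 in shPC, but the adhesion gene Cdh1 averaged 9.95 and 8.19, Epcam 8.22 and 6.19, and the basal keratin gene Krt14 was at 14.67 in Ctrl 1, so epithelial RNA was not absent. Its part in the members' values was not tested. Pcx, the target, had signals of 10.43, 7.24, 11.01, 7.79 and 9.54 in Ctrl 1 to 5 and of 9.91, 4.69, 9.39, 4.49 and 5.15 in shPC 1 to 5. Signals of shPC 1 and shPC 3 were thus no lower than those of some Ctrl tumors, and each group name is that of the label. Pcx, which fat cells also use, moved with the adipocyte markers: their mean was 10.95, 8.64, 12.27, 8.60 and 10.42 in Ctrl 1 to 5 and 11.22, 6.24, 10.57, 6.09 and 6.61 in shPC 1 to 5. The tumors shPC 1 and shPC 3 had the highest adipocyte means of their group, and the part of fat cells in the Pcx signal was not tested.

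The promoters are shown first, since E2F factors act through a short sequence near the start of their target genes. RefSeq start sites (GRCm38.p6) gave windows of 300 bases, 250 before and 50 after the start, for 40 of the 49 measured members and for 15691 of all tested genes. The E2F motif was searched on both strands as TTTCCCGC, TTTCGCGC, TTTGCCGC and TTTGGCGC, whose matches on opposite strands can overlap. It stood in a window of 15 of the 40 members (37.5%), against 3.38% of all tested genes with a window. Origin licensing had 6 of 9 genes and the polymerases 4 of 7, while deoxynucleotide synthesis had 0 of 5 and S phase entry 0 of 2. Of 21 matches in member windows, 13 began no more than 100 bases before the start or after it. Stretches of 8 of these promoters follow, printed 5′ to 3′ on the strand of the gene with the motif in capitals: 3 helicase subunits with paired sites, Orc1, the match holders Cdc6 and Lig1 with the smallest p, and Rfc3 and Pold1, whose signal was nearly the same in both groups.
Mcm3 (chr1:20820263-20820333, minus strand): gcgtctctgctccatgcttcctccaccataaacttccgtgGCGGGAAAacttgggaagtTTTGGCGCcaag
Mcm5 (chr8:75109316-75109407, plus strand): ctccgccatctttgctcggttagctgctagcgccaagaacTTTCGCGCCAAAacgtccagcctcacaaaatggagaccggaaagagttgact
Mcm6 (chr1:128359768-128359855, minus strand): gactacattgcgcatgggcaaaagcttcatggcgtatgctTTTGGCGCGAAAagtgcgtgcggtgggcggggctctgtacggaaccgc
Orc1 (chr4:108579387-108579474, plus strand): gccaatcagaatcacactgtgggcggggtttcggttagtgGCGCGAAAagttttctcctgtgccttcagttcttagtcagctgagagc
Cdc6 (chr11:98907973-98908060, plus strand): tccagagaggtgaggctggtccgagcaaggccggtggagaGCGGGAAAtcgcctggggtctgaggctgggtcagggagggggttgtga
Lig1 (chr7:13278812-13278875, plus strand): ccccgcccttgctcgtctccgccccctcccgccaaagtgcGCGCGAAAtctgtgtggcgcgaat
Rfc3 (chr5:151651161-151651258, minus strand): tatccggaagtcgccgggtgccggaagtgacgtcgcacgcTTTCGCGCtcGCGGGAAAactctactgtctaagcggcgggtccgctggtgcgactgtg
Pold1 (chr7:44548766-44548816, minus strand): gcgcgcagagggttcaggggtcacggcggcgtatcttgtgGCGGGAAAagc

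In Mcm5 and Mcm6 a site on each strand overlaps its neighbour into a run of 12 bases, and in Mcm3 and Rfc3 the pair is separate. Another Mcm6 match, at position -47 from the start, lies outside the printed stretch. The 15 members with a match had a median difference (shPC minus Ctrl) of 0.22 and the 25 with a window but no match 0.29, which were not compared by a test, and Rfc3 and Pold1 had differences of -0.05 and -0.03. A match is a description of the letters and not of binding. The E2F motif was also found in 30.4% of RB-E2F regulators, 22.2% of other replication factors and 17.6% of checkpoint genes with a window. The CCAAT box stood in 60% of the members with a window, in 42.2% of all genes and in 75% of the mitosis genes. TTTGAA, the core of the CHR element of genes used in G2 and mitosis, stood in 15% of the members, in 17.8% of all genes and in 75% (18 of 24) of the mitosis genes, of which 4.17% (1 of 24) held the E2F motif.

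**Figure D1:**
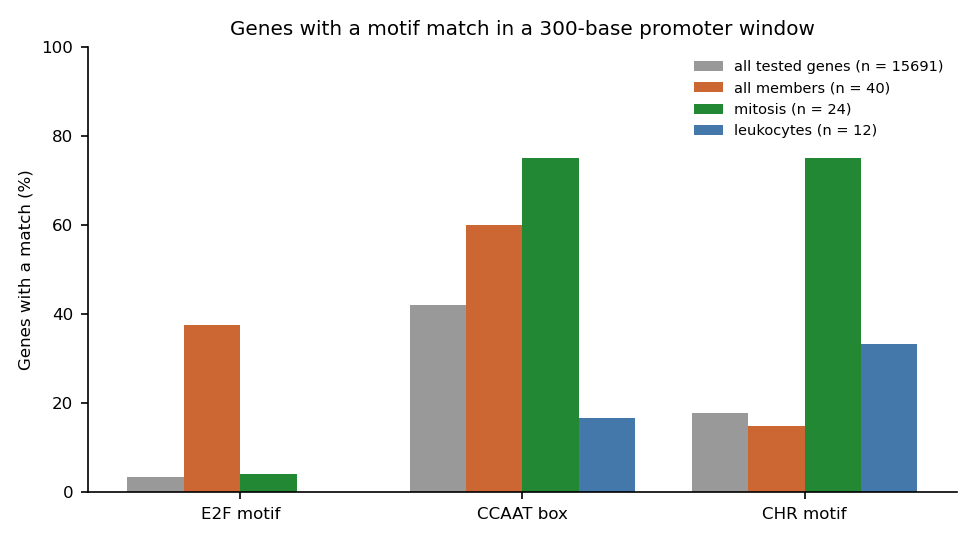
Share of genes (%) with a motif match in a promoter window, for all tested genes, the members, mitosis genes and leukocyte markers; n is the number of genes with a window. The E2F motif stood in 37.5% of members and 3.38% of all genes, and the CHR motif in 15% of members and 75% of mitosis genes.

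Most members lay slightly above Ctrl in shPC tumors, and no single one passed the test over all genes. The difference was above 0 in 45 of 49 members, against 55.1% of all genes, and its median was 0.26, against 0.04 over all genes. At an adjusted p under 0.05 from limma 0 members were called and 0 (0%) of all genes. At an unadjusted p under 0.05, 10 members were higher (20.4%, where 7.8% of all genes were) and 0 were lower (6.25% of all genes). In 1 member, Tyms, the lowest shPC tumor exceeded the highest Ctrl tumor (1.82% of all genes), and the reverse held in 0 members (1.79% of all genes). An exact permutation test of each member over all 252 ways to place the tumors gave p under 0.05 for 11 members, and adjusted over all genes its smallest p was 0.220. That test cannot give a p under 0.00794, so the number of tumors limits how low the adjusted value can go.

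The count of 10 moved with single tumors. It became 5 without shPC 5 (5.77% of all genes), 5 without Ctrl 3 (5.75%), 6 without Ctrl 2 (6.43%), 16 without Ctrl 4 (8.37%) and 17 without shPC 3 (8.73%). Without both Ctrl 1 and shPC 5 it was 4 (4.66% of all genes). The difference stayed above 0 in 42 to 49 members when any single tumor was left out (53.9% to 55.7% of all genes). With the mean of 15 leukocyte markers per tumor as a covariate 0 members were higher, 2 were lower, 8 of 49 had a difference above 0 and the median turned to -0.21. Of all genes in that fit 1.77% were higher, 300 of 19505 were lower and 49.1% were above 0, with a median of -0.0077. Leukocyte means did not overlap between groups (13.25 to 13.64 in Ctrl and 12.62 to 13.12 in shPC). That fit therefore cannot tell the leukocyte signal and the group apart.

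**Figure D2:**
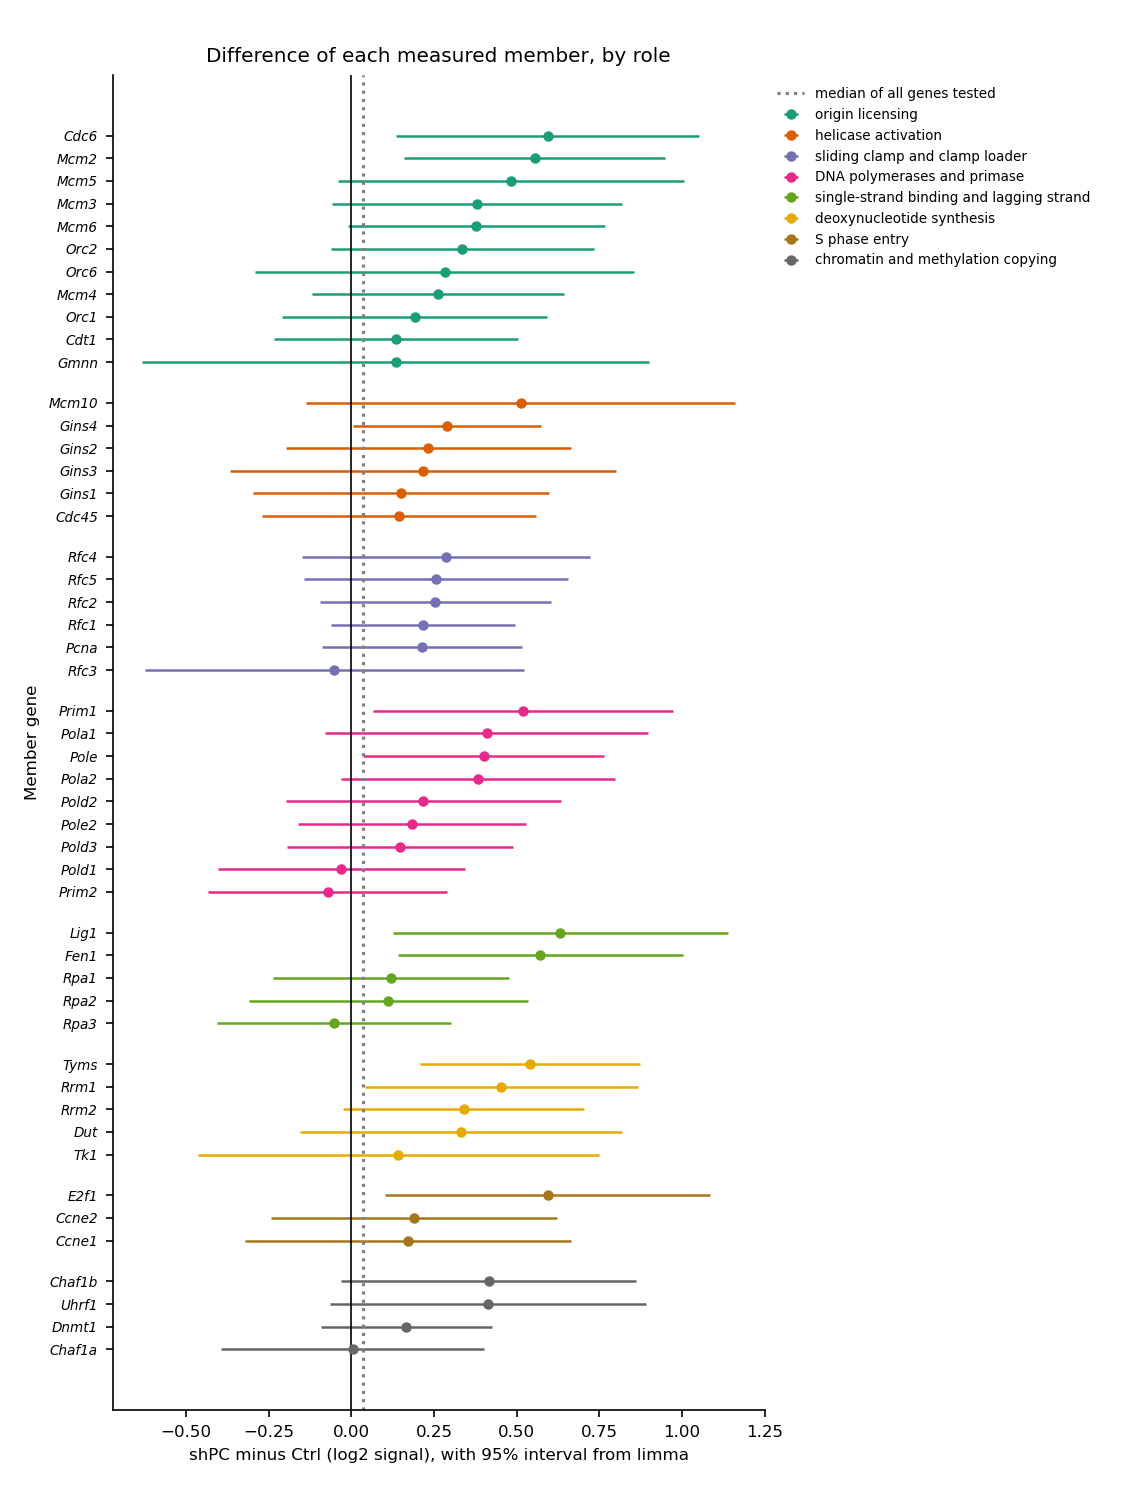
Difference of each of the 49 measured members (shPC minus Ctrl, log2 signal) with its 95% interval from limma, grouped by role; the dotted line is the median of all genes. Intervals of 10 members lie above 0, and 45 of 49 points do.

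Licensing genes all had positive differences, 11 of 11, with a median of 0.34. Mcm2, a helicase subunit, had signals of 11.78, 11.44, 11.30, 12.04 and 12.15 in Ctrl 1 to 5 and of 12.38, 12.29, 12.05, 12.40 and 12.36 in shPC 1 to 5. Only Ctrl 5 exceeded shPC 3, the lowest of its group, and the difference was 0.55 (standard error 0.18, adjusted p = 0.240). Cdc6, the helicase loader that is made anew in each cycle, had 8.67, 9.44, 9.06, 8.99 and 9.31 in Ctrl and 10.09, 9.56, 9.10, 9.81 and 9.88 in shPC. Apart from shPC 3 every shPC tumor lay above Ctrl, and the difference was 0.59 (standard error 0.21, adjusted p = 0.255). Mcm6, another helicase subunit, had 13.24, 13.10, 13.21, 13.57 and 13.11 in Ctrl and 13.60, 13.38, 13.30, 13.69 and 14.15 in shPC. Its groups overlapped only through Ctrl 4, with a difference of 0.38 (standard error 0.18, adjusted p = 0.367).

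The 5 measured subunits of the MCM2-7 ring had differences between 0.26 (Mcm4) and 0.55 (Mcm2), with Mcm3 at 0.38 and Mcm5 at 0.48. Origin recognition subunits were at 0.19 (Orc1), 0.34 (Orc2) and 0.28 (Orc6). Cdt1, which brings the helicase to the origin, and Gmnn, which encodes the CDT1 inhibitor geminin, were closest to 0, at 0.14 and 0.13. Cdt1 had 10.56, 10.49, 10.64, 10.64 and 11.23 in Ctrl and 11.08, 10.70, 10.60, 10.98 and 10.88 in shPC, so the highest tumor of all was Ctrl 5. The Gmnn interval ran from -0.63 to 0.90, the lowest lower bound of the set, with a standard error of 0.35, so a difference in either direction was not detectable at this precision. CDT1 and geminin are controlled largely by protein degradation, which arrays do not measure.

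**Figure D3:**
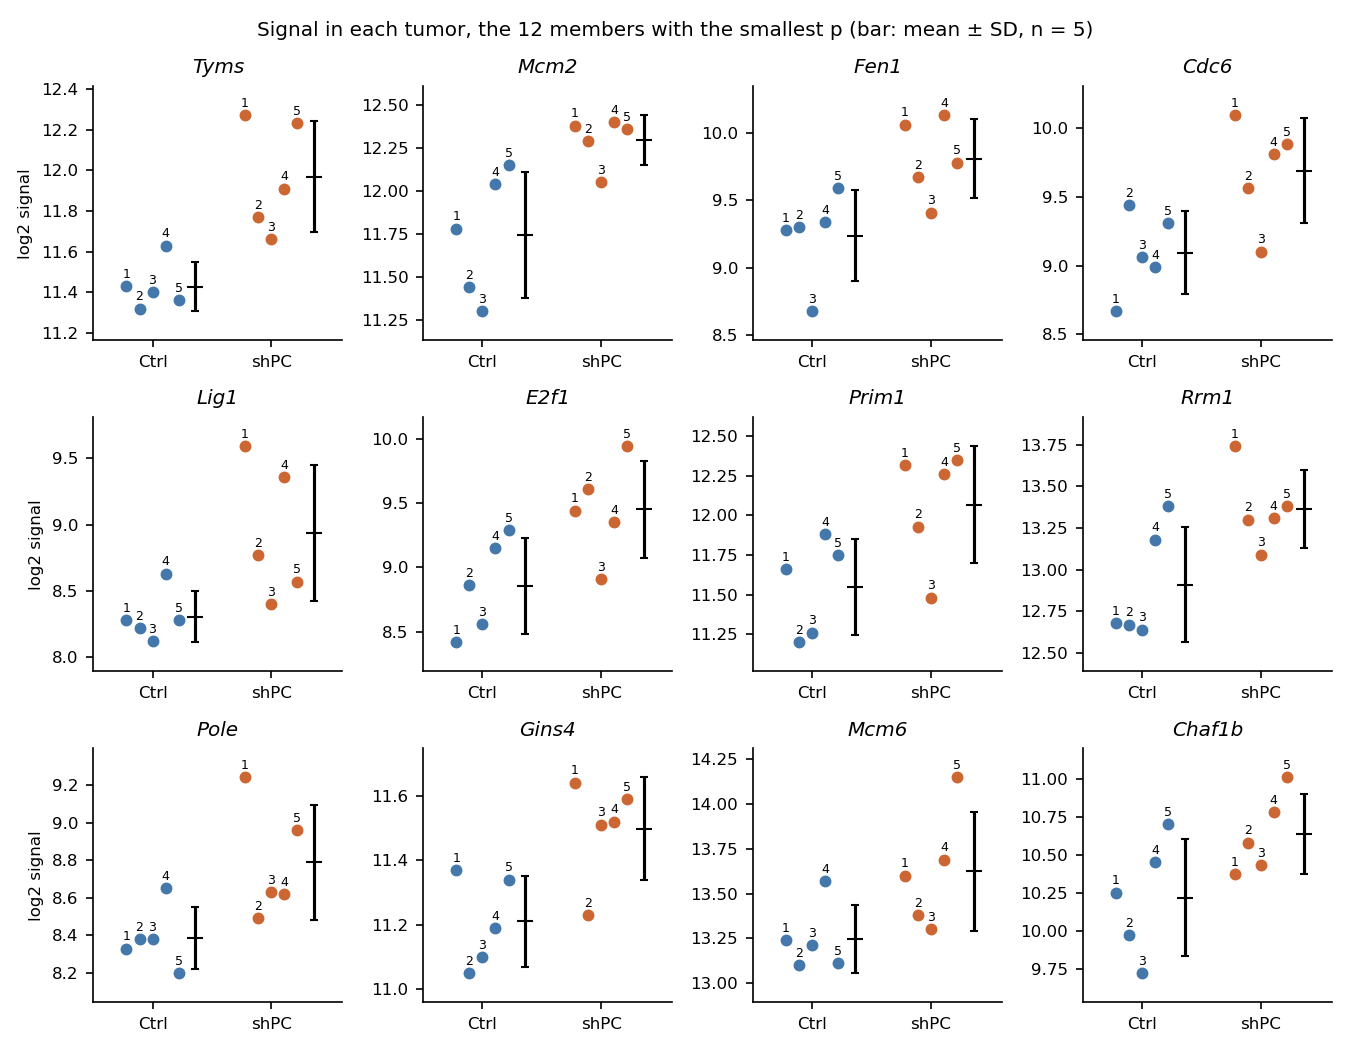
Log2 signal in each tumor (numbered points) for the 12 members with the smallest p, with the mean ± SD of each group (n = 5). The groups are apart in Tyms alone, and shPC 3 is the lowest shPC tumor in most panels.

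Helicase activation genes were positive in 6 of 6, with a median of 0.22. Gins4, a subunit of the GINS complex, had 11.37, 11.05, 11.10, 11.19 and 11.34 in Ctrl and 11.64, 11.23, 11.51, 11.52 and 11.59 in shPC. Here shPC 2 was the one tumor inside the Ctrl range, and the difference of 0.29 (standard error 0.13) had an adjusted p of 0.351. Gins1, Gins2 and Gins3 had 0.15, 0.23 and 0.22. Mcm10, which helps to start the assembled helicase, had a difference of 0.51 but a wide interval of -0.14 to 1.16. Cdc45, the helicase cofactor, had 10.29, 10.27, 10.01, 10.66 and 10.81 in Ctrl and 10.72, 10.65, 10.16, 10.84 and 10.39 in shPC. All shPC tumors but shPC 4 lay within the Ctrl range, and its difference was 0.14 (adjusted p = 0.758).

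Clamp and clamp loader genes were above 0 in 5 of 6, with a median of 0.24, and 0 were higher at an unadjusted p under 0.05. Pcna, the sliding clamp that tethers polymerases to DNA, had 15.72, 15.57, 15.42, 15.92 and 15.86 in Ctrl and 15.77, 15.93, 15.77, 16.03 and 16.06 in shPC. The groups overlapped and the difference was 0.21 (95% interval -0.09 to 0.52, adjusted p = 0.508). Rfc1, the large subunit of the clamp loader, had 11.87, 12.15, 11.85, 12 and 12.08 in Ctrl and 12.16, 12.24, 12.09, 12.09 and 12.46 in shPC, a difference of 0.22 (adjusted p = 0.465). Subunits Rfc2, Rfc4 and Rfc5 had 0.25, 0.29 and 0.26. Rfc3 had -0.05, with both the lowest value (8.08 in shPC 5) and the highest (9.30 in shPC 4) in the shPC group.

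Polymerase and primase genes were above 0 in 7 of 9, with a median of 0.22. Prim1, the catalytic primase that lays the RNA primer, had 11.66, 11.20, 11.26, 11.88 and 11.75 in Ctrl and 12.32, 11.93, 11.48, 12.26 and 12.35 in shPC. Only shPC 3 fell among the Ctrl tumors, and the difference was 0.52 (standard error 0.21, adjusted p = 0.297). Its partner Prim2 had a difference of -0.07 (interval -0.43 to 0.29). Pole, the catalytic subunit of the leading strand polymerase, had 8.33, 8.38, 8.38, 8.65 and 8.20 in Ctrl and 9.24, 8.49, 8.63, 8.62 and 8.96 in shPC. Its Ctrl 4 value exceeded 3 of the shPC tumors, and the difference was 0.40 (standard error 0.17, adjusted p = 0.314). Pola1, the catalytic subunit of the polymerase that extends primers, had 10.28, 11.06, 10.44, 11.16 and 10.69 in Ctrl and 11.10, 10.93, 10.71, 11.66 and 11.28 in shPC, a difference of 0.41 within overlapping groups (adjusted p = 0.434). Pola2 had 0.38, Pole2 0.18 and the lagging strand polymerase subunits Pold1, Pold2 and Pold3 had -0.03, 0.22 and 0.15.

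On the lagging strand the 2 enzymes that finish Okazaki fragments had differences of 0.57 and 0.63, and the 3 proteins that coat single-stranded DNA had -0.05 to 0.12. Fen1, the flap nuclease, had 9.28, 9.30, 8.68, 9.34 and 9.59 in Ctrl and 10.06, 9.67, 9.41, 10.13 and 9.78 in shPC. The overlap was between Ctrl 5 and shPC 3, and the difference was 0.57 (standard error 0.20, adjusted p = 0.25). Lig1, the replicative DNA ligase, had 8.28, 8.22, 8.12, 8.63 and 8.28 in Ctrl and 9.59, 8.77, 8.40, 9.36 and 8.57 in shPC. It had the largest difference of the 49, 0.63 (standard error 0.23, adjusted p = 0.266), with shPC 1 and shPC 4 highest and Ctrl 4 above shPC 3 and shPC 5. Rpa2, a subunit of the single-strand binding complex, had 9.81, 9.35, 9.83, 9.99 and 10.21 in Ctrl and 10.03, 9.47, 9.92, 10.25 and 10.08 in shPC. These values overlapped throughout, at a difference of 0.11 (adjusted p = 0.821), and Rpa1 and Rpa3 had 0.12 and -0.05. The enzymes and the coating proteins were not compared by a test.

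Nucleotide enzymes held the one member with separated groups. Tyms, thymidylate synthase, which makes the thymine nucleotide for DNA, had 11.43, 11.32, 11.40, 11.63 and 11.36 in Ctrl and 12.27, 11.77, 11.66, 11.91 and 12.23 in shPC. The groups did not overlap, although shPC 3 at 11.66 and Ctrl 4 at 11.63 were close. The difference was 0.54 (standard error 0.15, 95% interval 0.21 to 0.87, adjusted p = 0.201), or 1.45-fold if the base is 2, and its exact permutation p of 0.00794 is the smallest that 5 tumors against 5 can give. With arrays centred on their own medians the groups of Tyms overlapped and 0 members had groups apart.

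Rrm1, the large subunit of ribonucleotide reductase, which turns ribonucleotides into deoxynucleotides, had 12.68, 12.67, 12.64, 13.18 and 13.38 in Ctrl and 13.74, 13.30, 13.09, 13.31 and 13.38 in shPC. Ctrl 1 to 3 were low, Ctrl 4 and 5 were level with shPC, and the difference was 0.45 (standard error 0.19, adjusted p = 0.312). Rrm2, its small subunit and the one whose level follows S phase, had 11.58, 11.40, 11.16, 11.58 and 11.60 in Ctrl and 11.84, 11.52, 11.49, 12.15 and 12.02 in shPC. Overlap came from shPC 2 and shPC 3, at a difference of 0.34 (adjusted p = 0.385). Tk1, the salvage kinase for thymidine, had 6.14, 7.32, 6.98, 7.17 and 6.87 in Ctrl and 7.51, 7.03, 6.30, 6.84 and 7.51 in shPC. Its difference of 0.14 (interval -0.47 to 0.75, adjusted p = 0.846) turned to -0.05 without Ctrl 1. Dut, which removes dUTP, had 0.33 (adjusted p = 0.524).

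Among the S phase entry genes the transcription factor gene E2f1 had a larger difference than the E-type cyclins, a contrast that was not tested. E2f1 had 8.42, 8.86, 8.56, 9.15 and 9.29 in Ctrl and 9.44, 9.61, 8.91, 9.35 and 9.94 in shPC. Apart from shPC 3 all shPC tumors were above Ctrl, and the difference was 0.59 (standard error 0.22, adjusted p = 0.277). Ccne1, which encodes the kinase partner cyclin E1, had 9.66, 9.85, 9.23, 9.98 and 9.5 in Ctrl and 9.86, 9.5, 9.28, 10.04 and 10.40 in shPC. The groups overlapped at a difference of 0.17 (adjusted p = 0.757), and Ccne2 had 0.19.

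Among genes that copy chromatin, Chaf1b, a subunit of the histone chaperone at the fork, had 10.25, 9.97, 9.72, 10.45 and 10.70 in Ctrl and 10.37, 10.58, 10.43, 10.78 and 11.01 in shPC. Ctrl 4 and Ctrl 5 lay within the shPC range, and the difference was 0.42 (standard error 0.20, adjusted p = 0.385), while its partner Chaf1a had 0.00. Uhrf1, which recognises hemimethylated DNA, had 11.94, 11.77, 11.58, 12.26 and 12.54 in Ctrl and 12.76, 12.19, 11.99, 12.49 and 12.73 in shPC, a difference of 0.41 (adjusted p = 0.420). Dnmt1, the maintenance DNA methyltransferase that UHRF1 recruits, had 12.40, 12.48, 12.29, 12.36 and 12.37 in Ctrl and 12.78, 12.45, 12.41, 12.56 and 12.53 in shPC. Its difference was 0.17 (standard error 0.12, the smallest of the set, adjusted p = 0.549), with shPC 2 and shPC 3 inside the Ctrl range.

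The mean signal of the 49 members was 10.53 ± 0.19 (SD, n = 5) in Ctrl and 10.81 ± 0.22 (SD, n = 5) in shPC. Ctrl 3 was lowest at 10.31, followed by Ctrl 1 at 10.44, Ctrl 2 at 10.46 and shPC 3 at 10.48. In the middle lay shPC 2 at 10.68, Ctrl 5 at 10.69 and Ctrl 4 at 10.75, and shPC 4, shPC 1 and shPC 5 were highest at 10.95, 10.97 and 10.97. Within Ctrl, 24 of 49 members were lowest in Ctrl 3, and within shPC 36 of 49 were lowest in shPC 3. Above the highest Ctrl tumor of the same gene stood 26, 12, 2, 29 and 29 members in shPC 1 to 5. Without shPC 3, 7 members had groups apart, namely Cdc6, E2f1, Fen1, Mcm2, Mcm3, Prim1 and Tyms. Leaving out a tumor cannot lower such a count, and shPC 3 was the lowest shPC tumor for most members. The share of all genes was not counted for this setting or for the counts per tumor.

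**Figure D4:**
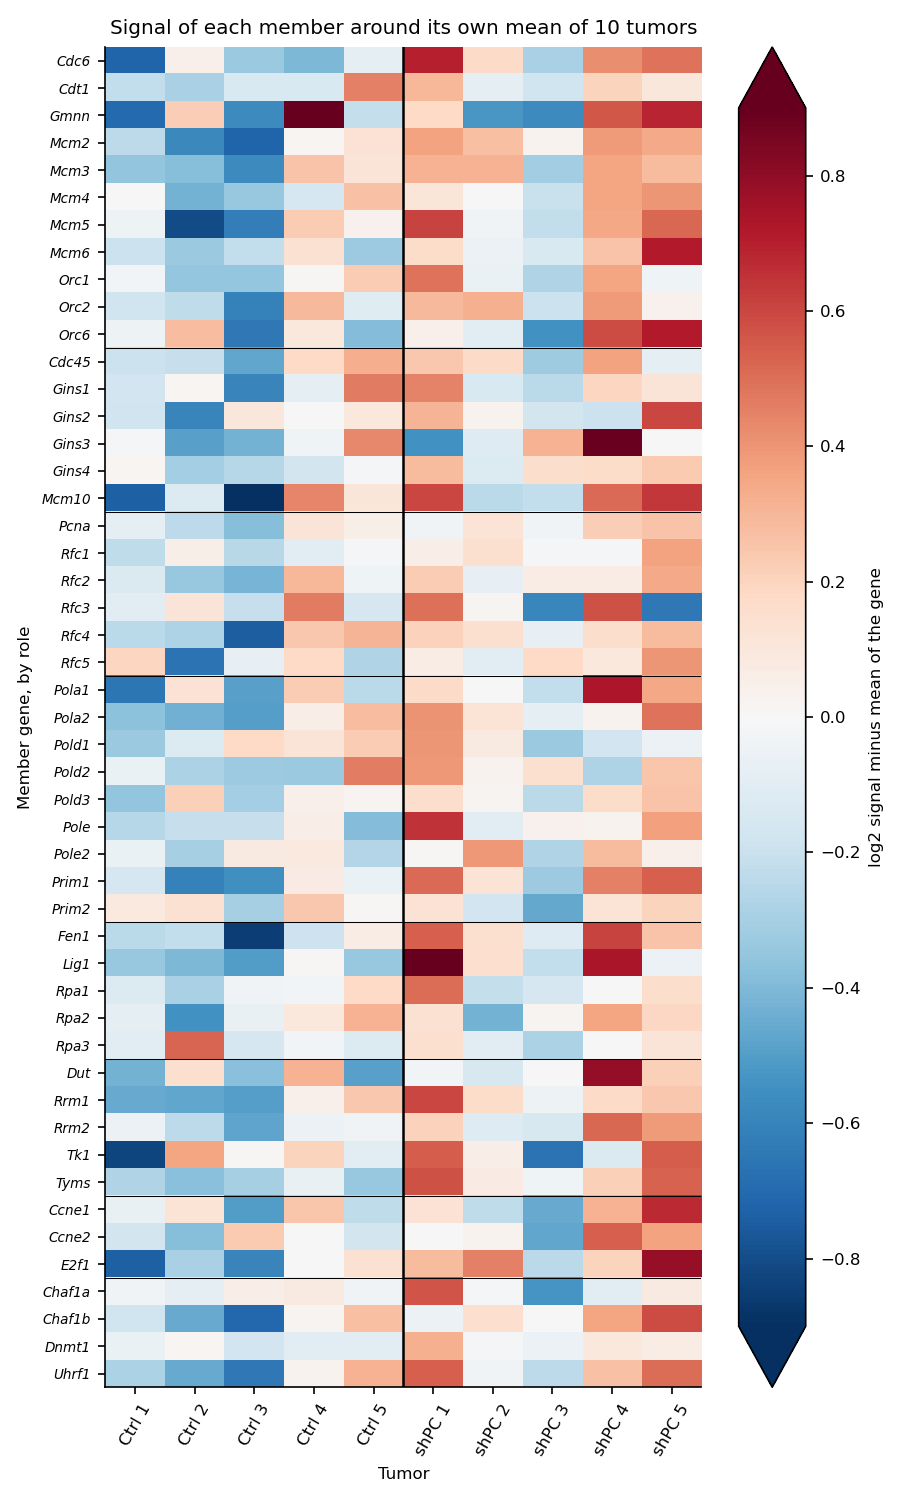
Log2 signal of each member in each tumor minus the mean of that gene over the 10 tumors, with genes in rows by role and tumors in columns. Most rows are red in shPC 1, 4 and 5 and blue in Ctrl 1 to 3, while shPC 3 is mostly blue.

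Genes of the same pathway outside the set also lay mostly above 0. Of 32 other replication factors 29 had a difference above 0 (median 0.25), 8 were higher at an unadjusted p under 0.05 and 0 lower, against 7.8% and 6.25% of all genes. Mcm8, a relative of the helicase subunits used in DNA repair, had 0.80 (adjusted p = 0.219), the fork-relaxing enzyme Top1 0.44 (adjusted p = 0.233), the histone chaperone Nasp 0.50 and the fork repair factor Mms22l 0.57. Checkpoint and fork protection genes were above 0 in 22 of 22 (median 0.27) and 6 were higher at that p. Brca1, of homologous recombination, had 0.56, the kinase Wee1 0.60, Etaa1, an activator of the checkpoint kinase ATR, 0.37, and Fancd2, of crosslink repair, had 0.50 with groups apart. Chek1, the checkpoint kinase, had 0.28 (adjusted p = 0.494). None of the 22 passed the adjusted test, whose smallest p was 0.221.

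Other nucleotide genes gave 24 of 28 above 0 (median 0.21), with 6 higher and 1 lower at the unadjusted p. Over all genes the shares were 55.1% above 0, 7.8% higher and 6.25% lower. Umps, which completes pyrimidine synthesis, had a difference of 0.48 with groups apart, the deoxycytidylate deaminase Dctd 0.74 and the folate enzyme Mthfd1 0.49. Dck, Dguok and Tk2 were below 0 (-0.18, -0.18 and -0.02), and so was Samhd1, the 1 gene lower at the unadjusted p. Samhd1 encodes the enzyme that destroys deoxynucleotides, is abundant in myeloid cells, and is interferon-inducible. The Samhd1 signal was 15.49, 15.49, 15.78, 15.31 and 15.30 in Ctrl and 14.52, 14.86, 14.93, 14.80 and 13.62 in shPC, below Ctrl in all shPC tumors. The difference was -0.93 (standard error 0.24, adjusted p = 0.194), the opposite sign to Rrm1 and Tyms.

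Upstream, 21 of 29 regulators of the RB-E2F pathway had differences above 0 (median 0.16), 9 were higher and 1 lower at the unadjusted p. Of all genes 55.1% were above 0, 7.8% were higher and 6.25% lower. Cdk2, the kinase partner of cyclin E, had 11.92, 11.49, 11.43, 11.74 and 11.60 in Ctrl and 12.13, 12.25, 12.07, 12.27 and 12.14 in shPC. The groups did not overlap, with a difference of 0.54 (standard error 0.13, adjusted p = 0.191). Cdk4, the kinase partner of D cyclins, had 0.47, the repressor E2f8 0.64 and the E2F partner Tfdp1 0.42. The RB family, named after its values were seen, had differences below 0: Rbl2, the 1 regulator lower at the unadjusted p, had -0.42 (adjusted p = 0.292), Rb1 -0.40 (adjusted p = 0.386) and Rbl1 -0.23 (adjusted p = 0.554). Differences of the CDK inhibitor genes Cdkn1a and Cdkn1b were 0.21 (adjusted p = 0.629) and 0.33 (adjusted p = 0.342).

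Mitosis genes, which act after replication, had a median of 0.51, beside 0.26 for the members. All 28 were above 0 (55.1% of all genes) and 18 were higher at an unadjusted p under 0.05 (7.8% of all genes). The smallest adjusted p was still 0.185. Prc1, which bundles the midzone of the spindle, had 0.77 with groups apart, the anaphase activator Cdc20 0.85, the kinesin Kif20a 0.80 and the spindle kinase Aurka 0.58. Mki67, the proliferation marker, had 15.56, 15.44, 15.07, 15.84 and 15.53 in Ctrl and 16.10, 16.05, 15.64, 16.18 and 16.12 in shPC. Only shPC 3 fell below the highest Ctrl tumor, at a difference of 0.53 (standard error 0.17, adjusted p = 0.231). Top2a, the topoisomerase that untangles chromosomes, had 0.35 (adjusted p = 0.409). Mitosis and replication genes were not compared by a test.

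Means of several host cell marker lists were lower in shPC, where most members were higher. The mean of the 15 leukocyte markers was 13.25 to 13.64 in Ctrl and 12.62 to 13.12 in shPC, without overlap, and all 15 had differences below 0, with Ptprc, which encodes CD45, at -0.89. Ptprc signals ran from 13.67 to 15.59 over the 10 tumors, and 0 of the 15 markers failed the filter on low values. The tumor with the lowest member mean had the highest leukocyte mean of its group, 13.64 in Ctrl 3 and 13.12 in shPC 3. These 2 tumors also had the highest T and NK cell mean of their group (11.27 and 10.12). Ctrl 3 was highest of its group for macrophages (14.74) and adipocytes (12.27), where shPC 5 (14.61) and shPC 1 (11.22) were highest of theirs. No relation within a group was tested. T and NK cell markers were at 10.08 to 11.27 in Ctrl and 6.51 to 10.12 in shPC (12 of 12 below 0), with Cd3e at 7.71 in shPC 5 against 11.41 to 12.61 in the other shPC tumors. B cell markers were below 0 in 7 of 8, with Cr2 at 0.28. Macrophage markers were not uniform: 7 of 9 were below 0, but Mrc1 had 0.83 (adjusted p = 0.284 from limma) and Csf1r 0.01. Macrophage means overlapped, at 14.48 to 14.74 in Ctrl and 14.20 to 14.61 in shPC. Adipocyte markers lay at 8.60 to 12.27 in Ctrl and 6.09 to 11.22 in shPC (13 of 13 below 0). With their mean as a covariate 5 members were higher at an unadjusted p (4.90% of all genes) and the members' median difference was 0.19. The part of these cells in the members' values was not tested. Since leukocyte means do not overlap between groups, the leukocyte signal and the group cannot be told apart in these tumors.

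**Figure D5:**
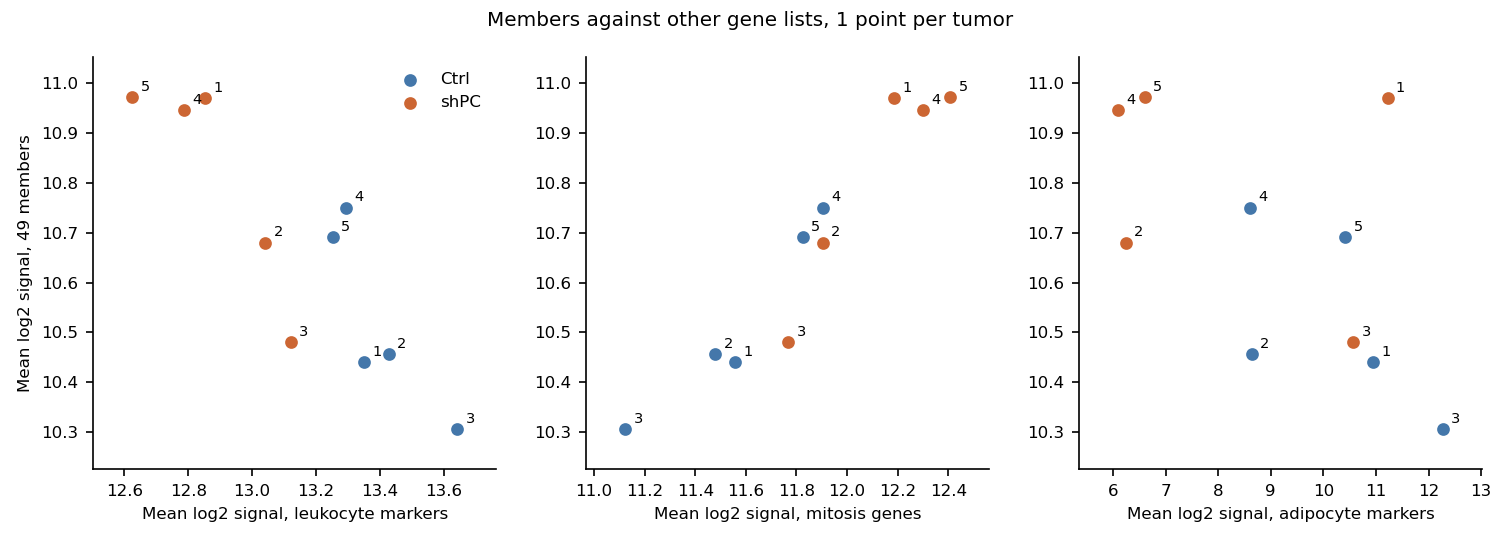
Mean log2 signal of the 49 members (vertical axis) against the means of leukocyte markers, mitosis genes and adipocyte markers (horizontal axes), 1 numbered point per tumor. Leukocyte means of the 5 Ctrl tumors (13.25 to 13.64) lie above those of all shPC tumors (12.62 to 13.12), and Ctrl 3 has the lowest member mean and the highest leukocyte mean.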

How the data were processed

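RNA of 10 M-Wnt tumors was prepared with the GeneChip WT PLUS reagents for Clariom S arrays. The authors deposited log2 values (the base is inferred) for 22206 probe sets and used Transcriptome Analysis Console, and their normalization is not stated in any source used here. Highest values of 19.04 to 19.19 exceed a 16-bit scanner read as log2, so the base is not certain. GEO's platform annotation named 1 gene for 19572 probe sets and 2634 were unnamed here. The probe set with the highest mean was kept per gene (19505 genes). Groups come from the labels, and no tumor was left out.

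Groups were compared with limma 3.58.1 in R 4.3.3 (eBayes, no filter), with Benjamini-Hochberg adjustment over all genes at 0.05. All 49 members passed a filter on low values (above the 30th percentile in at least 5 arrays). Exact permutation tests were two-sided. The fit was tested on simulated data. Members, lists, motifs and the rule for named genes were chosen with earlier results of these data known: values in every tumor are given for the 12 members with the smallest p, 16 members fixed by role, and the smallest p of each role group, differences for the others, and the 4 smallest p of each other list, with Mki67, Top2a, Chek1, Samhd1, Cdkn1a and Cdkn1b in any case. Alternatives were other normalizations, a low filter, other variance models, array weights, the methods' t-test, mean of probe sets, replicate block, marker covariates and tumors left out. Promoter sequences are RefSeq's.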

Additional observations from a re-analysis of the deposited data

Results flagged for a closer look

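In 3 of 102 groups of 5 tumors (49 members, Pcx and the mean of the members, in each group) 1 tumor stood far from the other 4, and chance gives about 1 in 20. Cdt1 was at 11.23 in Ctrl 5, where the other Ctrl tumors had 10.49 to 10.64. Mcm3 was at 11.62 in shPC 3, where the other shPC tumors had 12.22 to 12.29. Rpa3 was at 12.26 in Ctrl 2, where the other Ctrl tumors had 11.58 to 11.71.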

How the results depend on the processing

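In 21 alternatives 0 members were called by the fit at an adjusted p under 0.05. The smallest adjusted p of a named member was 0.129, for Tyms with trend and robust variances. Of all 19505 genes 10 were called with trend and robust variances and 4 without shPC 4. A single gene (1) was called with arrays centred on their medians, without Ctrl 4 and without shPC 2. Of 483 values of 23 named members over these alternatives 462 kept their direction. Normalization, the low filter, the variance model and the methods' t-test left the count of members higher at an unadjusted p between 9 and 13. Of all genes tested in these settings 7.77% to 10.4% were higher. Array weights gave 6 (7.23% of all genes), the adipocyte covariate 5 (4.90%) and leaving out Ctrl 1 and shPC 5 gave 4 (4.66%). Leaving out 1 tumor gave 5 to 17 such members (5.75% to 8.73% of all genes) and 1 to 7 with groups apart. In these settings 42 to 49 members had a difference above 0 (53.9% to 55.7% of all genes). The share of all genes with groups apart was not counted for these settings. With arrays centred on their medians 0 had groups apart, and the median of all genes moved from 0.04 to 0.10. Same-numbered tumors of the groups correlated in their deviations at 0.0441 to 0.281 and share only a number. With the replicate block 16 members were higher (7.93% of all genes), and 3 of 5 Ctrl tumors correlated best with their own number.

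The leukocyte covariate turned the most: 0 members were higher and 2 lower, 8 had a difference above 0, and the median was -0.21. Calls fell over all genes too, where 1.77% were higher, 300 of 19505 were lower and 49.1% were above 0. Of the 23 named members 17 reversed: Mcm2 -0.044, Fen1 -0.12, E2f1 -0.14, Prim1 -0.31, Rrm1 -0.035, Mcm6 -0.19, Chaf1b -0.36, Cdt1 -0.26, Cdc45 -0.36, Pcna -0.18, Pola1 -0.19, Rpa2 -0.36, Rrm2 -0.31, Tk1 -0.36, Ccne1 -0.76, Uhrf1 -0.48 and Rfc1 -0.0092. Tyms, Cdc6, Lig1, Pole, Gins4 and Dnmt1 stayed above 0. Leukocyte means do not overlap between groups, so the covariate and the group cannot be told apart in this fit, and the cause was not tested. Ccne1 reversed with the adipocyte covariate (-0.038), Tk1 without Ctrl 1 (-0.047, and 0.33 at most, without shPC 3) and without Ctrl 1 and shPC 5 (-0.17), and Rpa2 without Ctrl 2 (-0.01, and 0.23 at most, without shPC 2), and for these too the cause was not tested.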

Other observations

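Markers of other host tissues differed between tumors. Skeletal muscle genes averaged 9.17 in Ctrl 1 and 4.07 to 4.78 in the other 9 tumors, with the muscle actin gene Acta1 at 12.07 in Ctrl 1. Epithelial genes averaged 8.99 in Ctrl 1 and 7.45 in Ctrl 3, against 4.28 to 6.31 in the other 8 tumors. Endothelial genes were above 0 in 9 of 10 differences (median 0.27), with Emcn, a sialomucin of vessels, at 0.67, and 0 of 10 passed at an unadjusted p under 0.05.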
